A study of Mus musculus with 60 samples.

Results

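The 10 genes described here are direct transcriptional targets of the tumour suppressor p53 in mouse. They are Cdkn1a and Ccng1, which act on the cell cycle, Bax, Bbc3, Phlda3, Trp53inp1, Zmat3 and Eda2r, which act on cell death and survival, Mdm2, which feeds back on p53 itself, and Gdf15, a secreted factor. They were chosen by symbol, and each symbol matched 1 gene in every count table, so that they are 10 of the 54532 genes listed for NMuMG cells and 10 of the 55487 listed for 4T1 cells. RNA was sequenced from 60 cultures in 20 groups of 3 that the submitters call biological replicates. The study used NMuMG, a line of normal mouse mammary gland epithelial cells that turns mesenchymal under TGFβ1, and 4T1, a mouse triple negative breast cancer line, and TGFβ1 was given at 5 ng/ml.

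In the first NMuMG experiment, cells with a CRISPR guide against Pbrm1 (sgPBRM1, labelled PBRM1 KO) were set against cells with a control guide (sgCT), each without TGFβ1 (0 h) and after 24, 48 and 72 h of it. In the second NMuMG experiment, cells with a short hairpin against Atf3 (shATF3, labelled ATF3 KD) were set against cells with the pLKO control vector at the same 4 times. In 4T1, cells with a short hairpin against Pbrm1 (shPBRM1, labelled PBRM1 KD) were set against pLKO control cells, without TGFβ1 (0 d) and after 4 d of it. Pbrm1 encodes the polybromo subunit of the PBAF chromatin remodelling complex, and Atf3 encodes a stress-induced bZIP transcription factor. The labels do not say whether a knockout or knockdown line is 1 clone or a pool, and no group combined the loss of Pbrm1 with that of Atf3. Every untreated group is labelled 0 h or 0 d, and every later group had TGFβ1. TGFβ1 and time in culture therefore cannot be told apart, and changes under TGFβ1 are changes against those untreated groups. Nothing further is said of how replicate cultures were separated, so the p-values measure the spread between these libraries.

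p53 is a transcription factor that is held low by the MDM2 ubiquitin ligase and is stabilised by DNA damage and other stress. It binds pairs of decamer half-sites near its target genes and raises their transcription, which can stop the cell cycle, change metabolism and repair, or start apoptosis. Several of these genes also answer to other factors, Cdkn1a among them, whose promoter is a textbook target of SMAD proteins downstream of TGFβ. The line 4T1 has been described as carrying a frameshift mutation in Trp53, the gene for p53; the counts used here show how much RNA a gene had and not its sequence or protein.

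Libraries held 16225851 to 21883719 counts in the sgPBRM1 experiment, 15643826 to 22708269 in the shATF3 experiment and 22019846 to 31061668 in 4T1. Levels are given as CPM, the gene's counts relative to the library's total after scaling by TMM factors, with each library's value or the mean ± SD of 3 libraries, and differences as log2 fold changes ± SE from edgeR's quasi-likelihood test with Benjamini-Hochberg adjustment over all genes tested. A gene was called at an adjusted p under 0.05. Epithelial marker genes summed to 6292 to 11160.4 CPM, 4233 to 9535 CPM and 3304 to 3797 CPM in the 3 experiments, in NMuMG almost all of it from Krt8, Krt18 and Cdh1. Epcam did not pass 0.577 CPM and Esrp1 did not pass 0.0394 CPM in any NMuMG group. Markers of fibroblasts, leukocytes and endothelial cells each summed to at most 33.5 CPM. Pbrm1 itself stood at 97.2 ± 3.37 CPM in sgPBRM1 cells and 115 ± 0.370 CPM in sgCT cells at 0 h, a small difference (−0.25 ± 0.04, adjusted p = 6.82e-07) that does not show how much protein a guide left. It stood at 28.3 ± 1.78 CPM in shPBRM1 and 236 ± 3.20 CPM in pLKO 4T1 cells (−3.05 ± 0.04, adjusted p = 9.86e-34). Atf3 at 0 h was no lower in the libraries labelled shATF3 (12.3 ± 1.44 CPM) than in pLKO libraries (9.95 ± 0.820 CPM) by the test (0.31 ± 0.15, adjusted p = 0.106). It was lower at 24 h (−0.59 ± 0.14, adjusted p = 0.00135) and at 72 h (−0.46 ± 0.16, adjusted p = 0.0326). At 48 h it did not pass (−0.38 ± 0.15, adjusted p = 0.0575), and did by DESeq2 (adjusted p = 0.04), with no filter on low counts and in a fit of the groups compared alone. Without replicate 2 of the libraries labelled shATF3 the 72 h value was −0.25 (adjusted p = 0.248). These cells are therefore called the libraries labelled shATF3 throughout. Of the libraries labelled shATF3 at 72 h, replicate 2 stood apart from the others, with a chi-square per gene of 19.2 and 17.5 against them and 5.69 between them, and values that rest on it are given with and without it. Replicate 1 of those at 0 h also stood apart (10.6 and 10.9, against 3.86 between the others), as did replicate 3 of those at 48 h (8.52 and 8.55, against 4.22). So did replicate 2 of pLKO NMuMG cells at 72 h (8.46 and 14.5, against 5.44) and of untreated pLKO 4T1 cells (6.18 and 5.81, against 1.88).

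Per kilobase of exon, the members covered a wide range in untreated cells, and Ccng1, the gene of cyclin G1, led in NMuMG. In sgCT cells at 0 h it had 177 ± 0.910 CPM per kb, followed by Phlda3 at 113 ± 4.07, Bax at 81.2 ± 3.26, Cdkn1a at 60.7 ± 1.06 and Mdm2 at 45.3 ± 1.26. The rest were lower, from Trp53inp1 at 17.6 ± 0.142 CPM per kb through Zmat3, Bbc3 and Gdf15 to Eda2r at 0.934 ± 0.0443. In pLKO 4T1 cells without TGFβ1 the order was another one: Bax led at 25.9 ± 1.54 CPM per kb, Phlda3 had 15.8 ± 1.48, Ccng1 15.7 ± 1.40 and Mdm2 11.6 ± 0.506, and Cdkn1a only 4.05 ± 0.229. Neighbours in these orders are means of 3 libraries, and the values of Phlda3 and Ccng1 in 4T1 differed by less than their SD. The 4T1 and NMuMG tables were normalised apart and their libraries were made differently, so levels across the lines are set side by side and not tested.

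Gdf15 and Eda2r were nearly absent from 4T1 cells and low in NMuMG cells. Gdf15, a cytokine of the TGFβ superfamily that cells secrete under stress, gave 5 counts over the 3 untreated shPBRM1 libraries and 0 over the 3 untreated pLKO libraries of 4T1, and Eda2r, an ectodysplasin receptor of the TNF receptor superfamily, gave 2 and 0. After 4 d of TGFβ1, Gdf15 gave 1 count in shPBRM1 and 3 counts in pLKO 4T1 cells, and Eda2r 1 and 0. A count of 0 over the 3 untreated pLKO libraries allows a level of up to 3 counts, or 0.0395 CPM, counting error only. Both genes failed the filter on low counts in 4T1, so 8 members were tested there and all 10 in each NMuMG experiment.

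Cdkn1a encodes p21, the inhibitor of cyclin-dependent kinases through which p53 stops the cell cycle. RefSeq promoter windows were given for 8 members, all but Trp53inp1 and Zmat3. Among them only 1 of the 2 Cdkn1a windows held a pair of p53 half-sites, and the other, at chr17:29093519-29093818, held no half-site. The search was for the decamer of 3 purines, C, A or T, A or T, G and 3 pyrimidines, which is its own reverse complement, in windows from 250 bases before to 50 bases after each RefSeq transcript start of GRCm38.p6. The Cdkn1a window at chr17:29090729-29091028 on the plus strand is shown because it holds that pair, in capitals, with first bases at −73 and −51 from the start. Only exact matches were searched for and put in capitals. The bases right after the second capital stretch would be a further half-site but for their first base.
Cdkn1a: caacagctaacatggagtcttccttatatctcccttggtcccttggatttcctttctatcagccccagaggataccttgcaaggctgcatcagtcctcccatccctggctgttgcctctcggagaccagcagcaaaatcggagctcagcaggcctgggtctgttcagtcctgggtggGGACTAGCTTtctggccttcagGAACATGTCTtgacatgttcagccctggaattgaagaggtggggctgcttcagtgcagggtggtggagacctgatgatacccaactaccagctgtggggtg
At least 1 half-site was found in 8.36% of all 32851 windows, at least 2 in 0.359% and a pair no more than 13 bases apart in 0.0731%. Single matches stood in the windows of Mdm2, Ccng1 and Bax, on chromosomes 10, 11 and 7, and are shown here as the other members with a match.
Mdm2: GAACTTGCCT
Ccng1: GGGCAAGCCT
Bax: AGGCAAGCTT
Their first bases lay at −186, −185 and −201 from the start, in windows at chr10:117710709-117711008, chr11:40755237-40755536 and chr7:45466849-45467148, all on the minus strand. A match is a description of the letters and not a site in these cells, and no match in the windows of Gdf15, Bbc3, Eda2r and Phlda3 says only that these letters are not there. The motif TGANTCA of AP-1 and TGACGTCA of CREB and ATF factors, searched on both strands, were in 7.81% and 1.79% of all windows and in none of the members' windows.

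The first question was how these genes changed under TGFβ1 in cells with and without Pbrm1. Over 72 h most of them fell in both: in sgPBRM1 cells 8 of the 10 were lower and 1 was higher at 72 h than at 0 h, and in sgCT cells 8 were lower and none was higher. Cdkn1a, Ccng1, Mdm2, Trp53inp1, Bax, Gdf15 and Eda2r fell in both lines, whereas Phlda3 rose in sgPBRM1 cells and did not pass in sgCT cells. In bulk RNA, fewer cells that express a gene and less of its RNA per cell cannot be told apart. The response of NMuMG cells was broad, and in sgPBRM1 cells 36.2% of all genes tested were called higher and 34.9% lower at 72 h, while in sgCT cells 34.9% of all genes tested were called higher and 34.4% lower. The median log2 fold change of the members was −0.59 in sgPBRM1 cells and −0.65 in sgCT cells, beside 0.00 over all genes tested in each.

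Cdkn1a had 169, 174 and 167 CPM at 0 h, 151, 137 and 154 CPM at 24 h, 145, 156 and 146 CPM at 48 h and 117, 117 and 111 CPM at 72 h in sgPBRM1 cells. In sgCT cells it had 219, 216 and 212 CPM at 0 h, 184, 178 and 176 CPM at 24 h, 153, 156 and 148 CPM at 48 h and 125, 119 and 121 CPM at 72 h. Levels were lowest at 72 h in both lines, with no overlap between the 72 h and 0 h libraries. The 72 h difference from 0 h was −0.56 ± 0.04, adjusted p = 6.09e-21 in sgPBRM1 cells and −0.83 ± 0.04, adjusted p = 4.94e-29 in sgCT cells. In order of level, untreated sgCT cells stood highest, sgCT cells at 24 h came next, and untreated sgPBRM1 cells followed. The 2 groups at 48 h and sgPBRM1 cells at 24 h overlapped, and the groups at 72 h were lowest, sgPBRM1 below sgCT.

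Ccng1 encodes cyclin G1, a partner of protein phosphatase 2A that takes part in the feedback on MDM2, and it was the most abundant member. It had 649.7, 619.9 and 616 CPM at 0 h, 522, 519.6 and 507 CPM at 24 h, 378, 381 and 399 CPM at 48 h and 369, 347 and 347 CPM at 72 h in sgPBRM1 cells. The sgCT cells had 623, 625 and 619 CPM at 0 h, 511, 511 and 511 CPM at 24 h, 412, 433 and 427 CPM at 48 h and 352, 324 and 358 CPM at 72 h. Each step down from 0 to 24 to 48 h was free of overlap within a line. The 72 h difference from 0 h was −0.83 ± 0.03, adjusted p = 1.87e-33 in sgPBRM1 cells and −0.85 ± 0.03, adjusted p = 7.74e-34 in sgCT cells. Mdm2, which encodes the ubiquitin ligase that degrades p53, followed the same course. Its mean levels at 0, 24, 48 and 72 h were 186, 163, 133 and 121 CPM in sgPBRM1 cells and 230.2, 202, 158 and 125 CPM in sgCT cells. By library, Mdm2 had 124, 120.4 and 119.8 CPM in sgPBRM1 cells at 72 h, against 187, 178 and 193 CPM in sgPBRM1 cells at 0 h (−0.62 ± 0.03, adjusted p = 3.45e-24). In sgCT cells the values were 122, 129 and 122 CPM at 72 h, against 227, 227 and 238 CPM at 0 h (−0.88 ± 0.03, adjusted p = 5.65e-32).

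**Figure D1:**
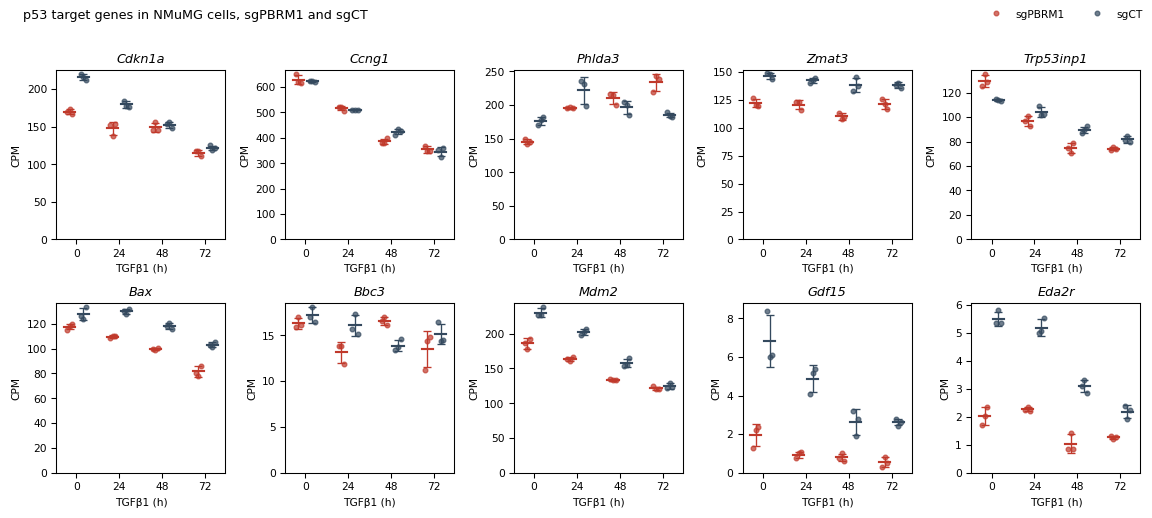
Levels of the 10 members (CPM, each library a point, short bars at the means of 3 libraries, whiskers for the SD) against hours of TGFβ1 in sgPBRM1 and sgCT NMuMG cells. Most panels fall with time in both lines, Gdf15 and Eda2r are lower in sgPBRM1 cells throughout, and Phlda3 climbs in sgPBRM1 cells to 219, 243 and 239 CPM at 72 h while sgCT cells end at 189, 184 and 183 CPM.

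The genes of the death and survival arm did not move as 1 block. Trp53inp1, a stress-induced nuclear protein that promotes p53-dependent death and autophagy, fell to 73.3, 75.6 and 73.7 CPM in sgPBRM1 cells at 72 h, against 125, 135 and 129 CPM at 0 h (−0.80 ± 0.04, adjusted p = 3.55e-26). It fell to 81.1, 84.8 and 79.2 CPM in sgCT cells, against 115, 114 and 113 CPM (−0.48 ± 0.04, adjusted p = 6.47e-16). Bax, which encodes the protein that opens the outer mitochondrial membrane in apoptosis, had 80.6, 77.8 and 86.2 CPM in sgPBRM1 cells at 72 h, against 115, 118 and 119.7 CPM in the same line at 0 h (−0.53 ± 0.04, adjusted p = 1.82e-19). The sgCT cells had 103, 102 and 105 CPM of Bax at 72 h, against 126, 124 and 134 CPM at 0 h (−0.31 ± 0.04, adjusted p = 4.41e-11). Phlda3, whose protein competes with AKT for membrane lipids, went the other way. It had 150.0, 142 and 145 CPM at 0 h, 195, 197 and 195 CPM at 24 h, 217, 215 and 199.9 CPM at 48 h and 219, 243 and 239 CPM at 72 h in sgPBRM1 cells. That was a rise of 0.68 ± 0.04 by 72 h (adjusted p = 3.08e-22). In sgCT cells it had 169.7, 178 and 182 CPM at 0 h, 236, 231 and 199 CPM at 24 h, 204, 200.4 and 186 CPM at 48 h and 189, 184 and 183 CPM at 72 h. It was highest there at 24 h (0.33 ± 0.04, adjusted p = 3.8e-10). At 72 h it was no longer past the threshold against 0 h (0.07 ± 0.04, adjusted p = 0.133), although its 3 libraries lay above those at 0 h. Between 24 and 72 h the 2 lines parted, with 0.26 ± 0.04, adjusted p = 2.42e-07 in sgPBRM1 cells and −0.26 ± 0.04, adjusted p = 3.23e-07 in sgCT cells.

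Zmat3 and Bbc3 changed little. Zmat3, which encodes a zinc-finger RNA-binding protein that acts on the stability and splicing of other RNAs, averaged 122, 121, 110.3 and 121 CPM at 0, 24, 48 and 72 h in sgPBRM1 cells and 147, 143, 138 and 138 CPM in sgCT cells. Its 72 h value against 0 h was −0.01 ± 0.04, adjusted p = 0.828 in sgPBRM1 cells and −0.09 ± 0.04, adjusted p = 0.025 in sgCT cells. Bbc3, which encodes the BH3-only death protein PUMA, ranged over all 24 libraries only between 11.2 and 18.1 CPM. At 72 h it was −0.27 ± 0.09, adjusted p = 0.0059 in sgPBRM1 cells and −0.19 ± 0.09, adjusted p = 0.0584 in sgCT cells. At 48 h it was 0.02 ± 0.09, adjusted p = 0.858 in sgPBRM1 cells and −0.31 ± 0.09, adjusted p = 0.0016 in sgCT cells. In sgCT cells the Zmat3 call was lost without replicate 1 or 2 at 0 h or replicate 3 at 72 h (−0.09 to −0.07, adjusted p = 0.0508 to 0.0986). In sgPBRM1 cells the Bbc3 call was lost without replicate 1 at 72 h (−0.18, adjusted p = 0.0833).

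Gdf15 and Eda2r had the fewest counts, and both fell by 72 h in both lines. Gdf15 had 1.30, 2.19 and 2.39 CPM at 0 h, 0.745, 1.00 and 1.05 CPM at 24 h, 0.744, 1.00 and 0.621 CPM at 48 h and 0.312, 0.824 and 0.503 CPM at 72 h in sgPBRM1 cells. It had 8.37, 6.02 and 6.09 CPM at 0 h, 4.09, 5.16 and 5.39 CPM at 24 h, 3.21, 1.89 and 2.76 CPM at 48 h and 2.76, 2.43 and 2.65 CPM at 72 h in sgCT cells. The 72 h difference was −1.81 ± 0.32, adjusted p = 1.37e-06 in sgPBRM1 cells and −1.38 ± 0.20, adjusted p = 1.23e-08 in sgCT cells, without overlap in either. Without sgCT 0 h replicate 1, which was the highest, the sgCT value was −1.21. Eda2r averaged 2.03, 2.27, 1.04 and 1.27 CPM at 0, 24, 48 and 72 h in sgPBRM1 cells and 5.50, 5.19, 3.09 and 2.18 CPM in sgCT cells. It did not pass at 24 h (0.16 ± 0.21, adjusted p = 0.532 in sgPBRM1 and −0.08 ± 0.15, adjusted p = 0.672 in sgCT cells) and was lower at 72 h (−0.68 ± 0.23, adjusted p = 0.00735 and −1.33 ± 0.18, adjusted p = 2.72e-09).

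At 24 h some members had not yet passed, Eda2r among them in both lines. In sgPBRM1 cells 8 of 10 passed (7 lower, 1 higher), where 59.7% of all genes tested were called in either direction. In sgCT cells 6 of 10 passed (5 lower, 1 higher), where 59.4% of all genes tested were called in either direction. At 48 h, 9 of 10 passed in sgPBRM1 cells (8 lower, 1 higher) and 10 of 10 in sgCT cells (9 lower, 1 higher), against 67.9% and 65.5% of all genes. From 24 to 72 h, 7 members differed in sgPBRM1 cells and 8 in sgCT cells, against 60.1% and 55% of all genes. Differences between 48 and 24 h were not tested. In sgCT cells at 48 h, calls were lost for Zmat3 with no filter on low counts (−0.08, adjusted p = 0.103). Nor did Zmat3 pass without sgCT 0 h replicate 1 or 2 or sgCT 48 h replicate 1 or 3 (−0.09 to −0.05, adjusted p = 0.0558 to 0.248). Phlda3 lost it with library totals alone as the scale (0.07, adjusted p = 0.152). In sgCT cells at 24 h, the call was lost for Gdf15 without sgCT 0 h replicate 1 or sgCT 24 h replicate 1 (−0.38 to −0.31, adjusted p = 0.0988 to 0.193). With library totals alone as the scale the median of all genes shifted to as low as −0.19 in the NMuMG time comparisons, and the share of higher genes among those called lay between 30.4% and 57.6%, beside 49.8% to 53.4% with TMM factors. The members called lower at 24, 48 and 72 h against 0 h in the first experiment kept their direction and their call on that scale. Since that scale moved the median of all genes down in each of these comparisons, it favoured lower calls and is a weak check of them.

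The second question was how the loss of Pbrm1 itself bore on these genes. Without TGFβ1, 7 of the 10 members were lower in sgPBRM1 than in sgCT cells, 1 was higher and 2 did not pass, where 21.9% of all genes tested were called higher and 23.2% lower. Those that were lower were Cdkn1a, Mdm2, Gdf15, Zmat3, Eda2r, Phlda3 and Bax, and the one that was higher was Trp53inp1. Since 24, 48 and 72 h have libraries of their own, each time was tested in the same way. At 24 h 9 members were lower, at 48 h 7 were lower and 2 higher, and at 72 h 5 were lower and 1 higher. In those comparisons 23.1%, 24.4% and 24.3% of all genes were higher and 23.7%, 25.6% and 25.6% were lower.

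Gdf15 stood out by size. It had 1.30, 2.19 and 2.39 CPM in untreated sgPBRM1 cells, against 8.37, 6.02 and 6.09 CPM in untreated sgCT cells (−1.80 ± 0.20, adjusted p = 4.03e-11). Late in the course, at 72 h, it had 0.312, 0.824 and 0.503 CPM in sgPBRM1 cells, against 2.76, 2.43 and 2.65 CPM in sgCT cells (−2.22 ± 0.31, adjusted p = 1.75e-08). All 3 libraries of sgPBRM1 cells lay below all 3 of sgCT cells at each of the 4 times, and the differences at 24 and 48 h were −2.40 ± 0.25 and −1.71 ± 0.28. Even untreated sgPBRM1 cells lay below sgCT cells after 72 h of TGFβ1. Eda2r came next, with 1.72, 2.04 and 2.34 CPM in untreated sgPBRM1 cells, against 5.36, 5.81 and 5.35 CPM in untreated sgCT cells (−1.43 ± 0.18, adjusted p = 6.28e-10). Its differences at 24, 48 and 72 h were −1.19 ± 0.18, −1.57 ± 0.22 and −0.78 ± 0.24, each without overlap (adjusted p = 7.83e-08, 2.19e-08 and 0.00426).

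Cdkn1a had 169, 174 and 167 CPM in untreated sgPBRM1 cells, against 219, 216 and 212 CPM in untreated sgCT cells (−0.34 ± 0.03, adjusted p = 8.98e-13). The difference shrank with TGFβ1: it was −0.28 ± 0.04, adjusted p = 9.89e-10 at 24 h, −0.03 ± 0.04, adjusted p = 0.473 at 48 h and −0.08 ± 0.04, adjusted p = 0.0781 at 72 h. Mdm2 was lower for longer, with 187, 178 and 193 CPM in untreated sgPBRM1 cells, against 227, 227 and 238 CPM in untreated sgCT cells (−0.31 ± 0.03, adjusted p = 3.11e-12). At 48 h it averaged 133 ± 0.949 CPM in sgPBRM1 and 158 ± 6.13 CPM in sgCT cells, without overlap. At 72 h its values were 124, 120.4 and 119.8 CPM in sgPBRM1 and 122, 129 and 122 CPM in sgCT cells, which overlapped (−0.04 ± 0.04, adjusted p = 0.38). Ccng1, the other cell cycle gene, did not pass at 0 h (0.01 ± 0.03, adjusted p = 0.724) or at 72 h (0.04 ± 0.03, adjusted p = 0.314), and was lower at 48 h (−0.14 ± 0.03, adjusted p = 0.000117). For Cdkn1a at 72 h, the call was gained with library totals alone as the scale (−0.12, adjusted p = 0.00528), and its groups at that time did not overlap.

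Zmat3 was lower in sgPBRM1 cells at every time, with log2 fold changes of −0.26 at 0 h, −0.24 at 24 h, −0.33 at 48 h and −0.19 at 72 h (adjusted p = 5.94e-09, 8.78e-08, 1.51e-11 and 2.09e-05), and the 12 sgPBRM1 libraries all lay below the 12 sgCT libraries. It had 127, 121 and 119 CPM in untreated sgPBRM1 cells, against 149, 148 and 144 CPM in untreated sgCT cells. Bax was lower as well, at 0 h (−0.12 ± 0.04, adjusted p = 0.00397) and at 72 h (−0.34 ± 0.04, adjusted p = 4.24e-11), when it had 80.6, 77.8 and 86.2 CPM in sgPBRM1 cells, against 103, 102 and 105 CPM in sgCT cells. Trp53inp1 changed sides: it had 125, 135 and 129 CPM in sgPBRM1 cells at 0 h, against 115, 114 and 113 CPM in sgCT cells at 0 h (0.19 ± 0.04, adjusted p = 3.83e-05). Later it had 73.3, 75.6 and 73.7 CPM in sgPBRM1 cells at 72 h, against 81.1, 84.8 and 79.2 CPM in sgCT cells at 72 h (−0.14 ± 0.04, adjusted p = 0.0064). Phlda3 changed sides in the opposite sense, from lower at 0 h (−0.28 ± 0.04, adjusted p = 1.57e-07) to higher at 72 h (0.33 ± 0.04, adjusted p = 5.72e-10). Its values at 0 h were 150.0, 142 and 145 CPM in sgPBRM1 and 169.7, 178 and 182 CPM in sgCT cells.

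Bbc3 did not pass at 0 h or 72 h (−0.07 ± 0.09, adjusted p = 0.51 and −0.16 ± 0.09, adjusted p = 0.152). It was lower at 24 h (−0.28 ± 0.09, adjusted p = 0.00691) and higher at 48 h (0.25 ± 0.09, adjusted p = 0.0147). At 0 h the call was lost for Bax without sgCT 0 h replicate 3 (−0.09, adjusted p = 0.0582). At 24 h calls were lost for Bbc3 without sgCT 24 h replicate 2 or sgPBRM1 24 h replicate 3 (−0.23 to −0.22, adjusted p = 0.0596 to 0.0709). Trp53inp1 lost it without sgCT 24 h replicate 1 or sgPBRM1 24 h replicate 1 or 3 (−0.10 to −0.08, adjusted p = 0.0612 to 0.169). At 48 h calls were lost for Bbc3 without sgCT 48 h replicate 1 or 2 or sgPBRM1 48 h replicate 2 (0.21 to 0.23, adjusted p = 0.0616 to 0.0734). Phlda3 lost it with library totals alone as the scale (0.05, adjusted p = 0.263) and by DESeq2 (0.10, adjusted p = 0.129). Nor did Phlda3 pass without sgCT 48 h replicate 2 or 3 or sgPBRM1 48 h replicate 1 or 2 (0.06 to 0.10, adjusted p = 0.091 to 0.294).

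Ranked over the 8 groups of the first experiment, Trp53inp1 stood highest in untreated sgPBRM1 cells (129.6 CPM) and lowest in sgPBRM1 cells at 72 h (74.2 CPM), and of the neighbours in that order only the last pair, sgPBRM1 cells at 48 and 72 h, overlapped. Mdm2 ran from 230.2 CPM in untreated sgCT cells to 121 CPM in sgPBRM1 cells at 72 h, with overlap between sgPBRM1 cells at 24 h and sgCT cells at 48 h and between the 2 groups at 72 h. Phlda3 was highest in sgPBRM1 cells at 72 h (234 CPM) and lowest in untreated sgPBRM1 cells (146 CPM), and its 5 highest groups overlapped with their neighbours. Bax was highest in sgCT cells at 24 and 0 h, which overlapped (130.0 and 128 CPM), and lowest in sgPBRM1 cells at 72 h (81.6 CPM). For Bbc3 no neighbours in the order were free of overlap, from 17.2 CPM in untreated sgCT cells to 13.2 CPM in sgPBRM1 cells at 24 h.

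Whether the change under TGFβ1 differed between the 2 lines was asked of each gene by the interaction term. The term is the log2 change in sgPBRM1 cells minus that in sgCT cells. At 24 h 1 member passed, Trp53inp1 (−0.29 ± 0.06, adjusted p = 4.51e-05), where 18.4% of all genes tested were called in either direction. By 72 h 5 members passed, where 27.4% of all genes tested were called in either direction. Cdkn1a (0.26 ± 0.05, adjusted p = 4.57e-05) and Mdm2 (0.27 ± 0.05, adjusted p = 9.45e-06) fell less in sgPBRM1 cells, which had started lower. Trp53inp1 (−0.33 ± 0.06, adjusted p = 7.31e-06) and Bax (−0.22 ± 0.05, adjusted p = 0.000689) fell more. Phlda3 had the largest term (0.61 ± 0.06, adjusted p = 6.71e-13), with a rise in sgPBRM1 cells beside a change in sgCT cells that did not pass. The terms of Ccng1 (0.02 ± 0.04, adjusted p = 0.745), Zmat3 (0.08 ± 0.05, adjusted p = 0.276), Bbc3 (−0.09 ± 0.13, adjusted p = 0.683), Gdf15 (−0.43 ± 0.39, adjusted p = 0.474) and Eda2r (0.65 ± 0.30, adjusted p = 0.106) did not pass. The interaction shares its untreated libraries with the comparisons above. For Bax at 24 h (−0.13 ± 0.05, adjusted p = 0.0726), the term passed with library totals alone as the scale and without sgCT 0 h replicate 3 (adjusted p = 0.0249 and 0.0291), which made the count 2 in place of 1.

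In the second NMuMG experiment the response to TGFβ1 was mixed, with Ccng1, Mdm2, Zmat3 and Phlda3 above their 0 h levels at 72 h in the libraries labelled shATF3, and Ccng1, Mdm2, Bax and Gdf15 below theirs in pLKO cells. In the libraries labelled shATF3, 3 members were lower and none higher at 24 h, 5 were higher and 1 lower at 48 h, and 4 were higher and none lower at 72 h. In pLKO cells 8 were lower and none higher at 24 h, 4 lower and 1 higher at 48 h, and 4 lower and 1 higher at 72 h. For the libraries labelled shATF3, 49.3% of all genes were called at 24 h in either direction, 24.2% higher and 24.4% lower at 48 h, and 27.8% higher and 26.6% lower at 72 h. For pLKO cells, 26.9% were higher and 26.5% lower at 24 h, 53.8% were called at 48 h, and 28.9% were higher and 29.1% lower at 72 h. Replicates spread more here than in the first experiment, with a biological coefficient of variation of 7.59% against 2.88%.

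Ccng1 dipped at 24 h in both lines and came back. It had 379, 344 and 343 CPM at 0 h, 242, 244 and 244 CPM at 24 h, 429, 468 and 481 CPM at 48 h and 432, 452 and 434 CPM at 72 h in the libraries labelled shATF3. The pLKO cells had 556, 569 and 548 CPM at 0 h, 345, 331 and 366 CPM at 24 h, 509, 459 and 472 CPM at 48 h and 493, 433 and 510.1 CPM at 72 h. By 72 h it was above its 0 h level in the libraries labelled shATF3 (0.31 ± 0.06, adjusted p = 4.8e-05) and below it in pLKO cells (−0.22 ± 0.06, adjusted p = 0.00162). Cdkn1a had 69.1, 80.4 and 80.2 CPM at 0 h, 64.1, 59.3 and 56.9 CPM at 24 h, 95.3, 84.9 and 84.8 CPM at 48 h and 70.4, 62.9 and 69.6 CPM at 72 h in the libraries labelled shATF3. It was lower at 24 h (−0.35 ± 0.08, adjusted p = 0.000475), higher at 48 h (0.21 ± 0.08, adjusted p = 0.0283) and not past the threshold at 72 h (−0.18 ± 0.08, adjusted p = 0.0538). In pLKO cells it had 136, 134 and 140.0 CPM at 0 h, 126, 105 and 104 CPM at 24 h, 128, 117 and 128 CPM at 48 h and 119, 134 and 116 CPM at 72 h. There it was lower at 24 h (−0.29 ± 0.07, adjusted p = 0.00161) and not past the threshold at 72 h (−0.15 ± 0.07, adjusted p = 0.0831). The Cdkn1a groups at 72 h and 0 h overlapped in the libraries labelled shATF3 and did not in pLKO cells.

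Mdm2 rose in the libraries labelled shATF3, to 172, 167 and 176 CPM at 48 h and 143, 156 and 153 CPM at 72 h, against 121, 115 and 108 CPM at 0 h (0.59 ± 0.06, adjusted p = 9.69e-09 and 0.39 ± 0.06, adjusted p = 6.3e-06). In pLKO cells it fell at 24 h (−0.41 ± 0.06, adjusted p = 4.05e-06), did not pass at 48 h (0.02 ± 0.06, adjusted p = 0.808) and was lower at 72 h (−0.23 ± 0.06, adjusted p = 0.00265). Trp53inp1 dipped at 24 h and recovered, with 101, 85.7 and 86.4 CPM at 0 h, 42.8, 36.3 and 45.1 CPM at 24 h, 51.3, 58.3 and 57.1 CPM at 48 h and 78.3, 91.5 and 88.5 CPM at 72 h in the libraries labelled shATF3. That was −1.13 ± 0.09, adjusted p = 9.26e-12 at 24 h and −0.08 ± 0.08, adjusted p = 0.448 at 72 h against 0 h, and 1.05 ± 0.09, adjusted p = 2.09e-10 between 24 and 72 h. In pLKO cells it averaged 77.6, 66.4, 56.1 and 76.8 CPM at the 4 times, lowest at 48 h (−0.47 ± 0.08, adjusted p = 3.26e-05).

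**Figure D2:**
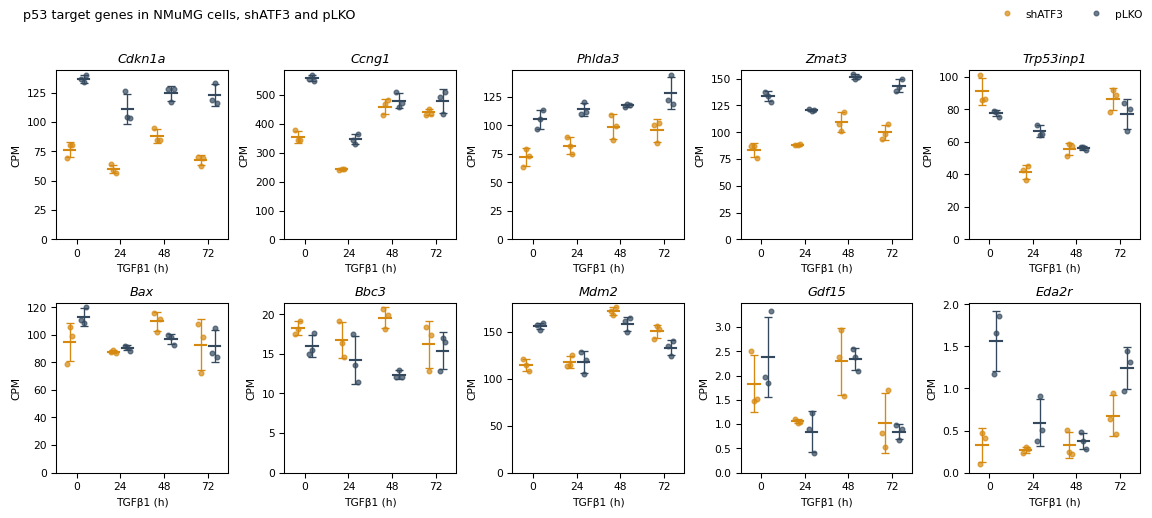
Levels of the 10 members (CPM, each library a point, short bars at the means of 3 libraries, whiskers for the SD) against hours of TGFβ1 in the libraries labelled shATF3 and in pLKO NMuMG cells. Cdkn1a, Zmat3 and Phlda3 run lower in the libraries labelled shATF3, and Trp53inp1 there dips to 42.8, 36.3 and 45.1 CPM at 24 h, against 70.6, 63.8 and 64.9 CPM in pLKO cells.

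Zmat3 and Phlda3 rose in the libraries labelled shATF3. Zmat3 had 93.9, 98.2 and 108 CPM in these libraries at 72 h, against 86.8, 87.4 and 75.9 CPM in these libraries at 0 h (0.26 ± 0.06, adjusted p = 0.000604). Phlda3 had 100.4, 84.4 and 102 CPM, against 63.9, 79.5 and 73.1 CPM (0.41 ± 0.09, adjusted p = 0.00047). In pLKO cells Zmat3 was higher at 48 h (0.19 ± 0.06, adjusted p = 0.00915) and not past the threshold at 72 h (0.10 ± 0.06, adjusted p = 0.133), and Phlda3 was higher at 72 h (0.28 ± 0.09, adjusted p = 0.00823). Bax was lower at 72 h in pLKO cells (−0.30 ± 0.10, adjusted p = 0.016). It was not past the threshold in the libraries labelled shATF3 (−0.03 ± 0.10, adjusted p = 0.846), whose 72 h values of 108, 72.1 and 98.2 CPM spread with replicate 2 lowest. Bbc3 averaged 18.3, 16.7, 19.6 and 16.2 CPM at 0, 24, 48 and 72 h in the libraries labelled shATF3 and 16, 14.2, 12.4 and 15.4 CPM in pLKO cells. It passed in 1 of these 6 comparisons with 0 h, in pLKO cells at 48 h (−0.37 ± 0.14, adjusted p = 0.0286). Gdf15 was lower at 24 and 72 h in pLKO cells (−1.51 ± 0.39, adjusted p = 0.00186 and −1.48 ± 0.39, adjusted p = 0.00196), with 0.972, 0.670 and 0.894 CPM at 72 h, against 1.96, 1.84 and 3.34 CPM at 0 h. Eda2r was lower in pLKO cells at 24 and 48 h (−1.41 ± 0.44, adjusted p = 0.00779 and −2.02 ± 0.46, adjusted p = 0.000492) and stayed below 1 CPM in every library labelled shATF3.

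Several of these calls were close to the threshold, while those of Ccng1 and Mdm2 against 0 h held in every setting tried. In pLKO cells at 24 h calls were lost for Trp53inp1 without pLKO 0 h replicate 1 or 2 or pLKO 24 h replicate 2 or 3 (−0.20 to −0.19, adjusted p = 0.0855 to 0.105). Zmat3 lost it with DESeq2's size factors in edgeR (−0.14, adjusted p = 0.0536), with no filter on low counts (−0.14, adjusted p = 0.105) and by DESeq2 (−0.14, adjusted p = 0.0531). Nor did Zmat3 pass without pLKO 0 h replicate 1 or 2 or 3 or pLKO 24 h replicate 1 or 2 or 3 (−0.16 to −0.11, adjusted p = 0.0504 to 0.198). Eda2r lost it without pLKO 24 h replicate 1 (−1.15, adjusted p = 0.0569). Bax lost it without pLKO 0 h replicate 3 or pLKO 24 h replicate 3 (−0.28 to −0.26, adjusted p = 0.0554 to 0.0727). In pLKO cells at 48 h they were lost for Bbc3 without pLKO 0 h replicate 3 or pLKO 48 h replicate 1 or 3 (−0.34 to −0.29, adjusted p = 0.0826 to 0.131). Zmat3 lost it with library totals alone as the scale (0.04, adjusted p = 0.535). In pLKO cells at 72 h they were lost for Phlda3 with library totals alone as the scale (0.12, adjusted p = 0.258). Nor did Phlda3 pass without pLKO 0 h replicate 1 or pLKO 72 h replicate 2 (0.19 to 0.23, adjusted p = 0.0504 to 0.0849). Bax lost it without pLKO 0 h replicate 3 or pLKO 72 h replicate 1 or 3 (−0.26 to −0.23, adjusted p = 0.0711 to 0.0888). Trp53inp1 kept its calls at 24 and 48 h in the libraries labelled shATF3. In the libraries labelled shATF3 at 48 h the call was lost for Cdkn1a with library totals alone as the scale (0.06, adjusted p = 0.542). Nor did Cdkn1a pass without shATF3 0 h replicate 1 or shATF3 48 h replicate 1 (0.14 to 0.15, adjusted p = 0.163 to 0.171). In these libraries at 72 h it was lost for Zmat3 with library totals alone as the scale (0.11, adjusted p = 0.136). Without replicate 2 of the 72 h libraries labelled shATF3, the members called at 72 h against 0 h were Ccng1 (0.29), Mdm2 (0.37), Zmat3 (0.27) and Phlda3 (0.49), all 4 higher, as with it.

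From 24 to 72 h, 4 members rose in the libraries labelled shATF3 and 3 in pLKO cells, and none fell, against 34.3% and 25.4% of all genes called. Ccng1 rose by 0.85 and 0.46, Mdm2 by 0.36 and 0.18 and Zmat3 by 0.18 and 0.25 on the log2 scale in these libraries and in pLKO cells, and Trp53inp1 by 1.05 in the libraries labelled shATF3. In the first experiment Ccng1 and Mdm2 changed over the same interval by −0.54 and −0.42 in sgPBRM1 cells and −0.57 and −0.70 in sgCT cells. The pLKO call was lost for Mdm2 with library totals alone as the scale (0.14, adjusted p = 0.11), with a filter at a mean of 1 CPM (0.17, adjusted p = 0.0505) and in a fit of the groups compared alone (0.17, adjusted p = 0.134). Nor did Mdm2 pass without pLKO 24 h replicate 2 or 3 or pLKO 72 h replicate 1 or 3 (0.09 to 0.18, adjusted p = 0.0781 to 0.324). In the libraries labelled shATF3 it was lost for Zmat3 with no filter on low counts (0.17, adjusted p = 0.0575) and in a fit of the groups compared alone (0.17, adjusted p = 0.071). Nor did Zmat3 pass without shATF3 24 h replicate 1 or 2 or shATF3 72 h replicate 3 (0.12 to 0.18, adjusted p = 0.0575 to 0.158).

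Set against pLKO cells, the libraries labelled shATF3 had less Cdkn1a, Zmat3 and Phlda3 at all 4 times. At 0 h 6 members were lower and 1 higher, where 18.6% of all genes tested were called higher and 18.4% lower. At 24 h 5 were lower and none higher, at 48 h 3 were lower and 1 higher and at 72 h 3 were lower and 1 higher, where 16.6%, 13.8% and 15% of all genes were lower and 15.2%, 11.8% and 15.6% higher. Atf3 RNA itself was called lower at 24 and 72 h, with the 72 h call lost without replicate 2, and not at 0 or 48 h, as given above, and its part in the members' levels was not tested.

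Cdkn1a had 69.1, 80.4 and 80.2 CPM in untreated libraries labelled shATF3, against 136, 134 and 140.0 CPM in untreated pLKO libraries (−0.84 ± 0.08, adjusted p = 1.08e-09). At 72 h it had 70.4, 62.9 and 69.6 CPM in the libraries labelled shATF3, against 119, 134 and 116 CPM in pLKO cells (−0.86 ± 0.08, adjusted p = 1.21e-09). The groups did not overlap at any time, and the differences at 24 and 48 h were −0.89 ± 0.08 and −0.49 ± 0.08. Zmat3 had 86.8, 87.4 and 75.9 CPM in untreated libraries labelled shATF3, against 138, 134 and 128 CPM in untreated pLKO libraries (−0.68 ± 0.06, adjusted p = 7.04e-10). Its differences at 24, 48 and 72 h were −0.45 ± 0.06, −0.47 ± 0.06 and −0.52 ± 0.06. All 12 libraries labelled shATF3 were below all 12 pLKO libraries in Zmat3. Phlda3 was lower at 0, 24, 48 and 72 h, with log2 fold changes of −0.55 ± 0.09, −0.47 ± 0.09, −0.25 ± 0.09 and −0.43 ± 0.09 (adjusted p = 2.24e-05, 0.000188, 0.0417 and 0.000586).

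Ccng1 differed early and not late. It had 379, 344 and 343 CPM in untreated libraries labelled shATF3, against 556, 569 and 548 CPM in untreated pLKO libraries (−0.65 ± 0.06, adjusted p = 6.38e-10). It was lower at 24 h (−0.51 ± 0.06, adjusted p = 6.53e-08), and did not pass at 48 h (−0.06 ± 0.06, adjusted p = 0.476) or 72 h (−0.12 ± 0.06, adjusted p = 0.107). Mdm2 was lower at 0 h (−0.44 ± 0.06, adjusted p = 2.35e-06), when it had 121, 115 and 108 CPM in the libraries labelled shATF3 and 157, 152 and 159 CPM in pLKO libraries. It was slightly higher at 72 h (0.18 ± 0.06, adjusted p = 0.0321). Trp53inp1 was higher at 0 h (0.23 ± 0.08, adjusted p = 0.0321) and lower at 24 h (−0.68 ± 0.09, adjusted p = 6.36e-07). Bbc3 was higher at 48 h, with 20.7, 18.1 and 19.9 CPM in the libraries labelled shATF3, against 12.1, 13 and 12.1 CPM in pLKO cells (0.66 ± 0.14, adjusted p = 0.000712). Eda2r was lower at 0 h (−2.23 ± 0.47, adjusted p = 0.000369) on few counts, 19 over the 3 libraries labelled shATF3 and 97 over the 3 pLKO libraries. Bax (−0.26 ± 0.10, adjusted p = 0.0543) and Gdf15 (−0.36 ± 0.35, adjusted p = 0.464) did not pass at 0 h. At 0 h the call was lost for Trp53inp1 without pLKO 0 h replicate 2 or 3 or shATF3 0 h replicate 1 (0.16 to 0.24, adjusted p = 0.0519 to 0.188). At 48 h it was lost for Phlda3 with library totals alone as the scale (−0.24, adjusted p = 0.0636). Nor did Phlda3 pass without pLKO 48 h replicate 1 or 2 or 3 or shATF3 48 h replicate 2 or 3 (−0.26 to −0.17, adjusted p = 0.0773 to 0.244). At 72 h it was lost for Mdm2 in a fit of the groups compared alone (0.17, adjusted p = 0.109). Nor did Mdm2 pass without pLKO 72 h replicate 1 or 2 or shATF3 72 h replicate 2 or 3 (0.13 to 0.19, adjusted p = 0.0598 to 0.172).

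The interaction asked whether a gene's change under TGFβ1 differed between the libraries labelled shATF3 and pLKO cells. At 24 h, where 18.7% of all genes tested were called in either direction, it passed for Trp53inp1 (−0.91 ± 0.12, adjusted p = 2.46e-06) and Mdm2 (0.44 ± 0.09, adjusted p = 0.000651). At 72 h, where 12.9% of all genes tested were called in either direction, it passed for Mdm2 (0.62 ± 0.09, adjusted p = 1.08e-05) and Ccng1 (0.53 ± 0.08, adjusted p = 2.76e-05). Both rose in the libraries labelled shATF3 and fell in pLKO cells. Cdkn1a, lower throughout in the libraries labelled shATF3, had terms near 0 (−0.06 ± 0.11, adjusted p = 0.791 at 24 h and −0.03 ± 0.11, adjusted p = 0.922 at 72 h). Without replicate 2 of the 72 h libraries labelled shATF3, 3 members passed at 72 h, Bax among them (0.42, adjusted p = 0.0166).

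In 4T1 cells some members were higher and others lower under TGFβ1, in cells with and without Pbrm1 knockdown. After 4 d, 4 of the 8 members tested were higher and 3 lower in shPBRM1 cells, where 35.2% of all genes tested were called higher and 34.7% lower. In pLKO cells 4 were higher and 3 lower, where 39.1% of all genes tested were called higher and 35.4% lower. In both lines Trp53inp1, Bbc3, Cdkn1a and Mdm2 rose and Zmat3 and Bax fell. The third that fell was Phlda3 in shPBRM1 cells (−0.14 ± 0.06, adjusted p = 0.0393) and Ccng1 in pLKO cells (−0.13 ± 0.05, adjusted p = 0.0158).

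Trp53inp1 had 10.5, 9.39 and 11.5 CPM in shPBRM1 4T1 cells after 4 d of TGFβ1, against 2.20, 2.77 and 1.83 CPM in shPBRM1 4T1 cells without it (2.22 ± 0.13, adjusted p = 3.57e-17). In pLKO 4T1 cells it had 14.5, 16.6 and 15.1 CPM after 4 d, against 2.22, 2.16 and 1.91 CPM (2.87 ± 0.12, adjusted p = 6.11e-21). The groups lay far apart, and the change in pLKO cells was the largest change of any member under TGFβ1 in the 3 experiments. Bbc3 had 18.5, 18.6 and 19.9 CPM in shPBRM1 cells after 4 d, against 9.07, 8.64 and 10.2 CPM without TGFβ1 (1.02 ± 0.08, adjusted p = 1e-13). It had 16.5, 16.5 and 16.1 CPM in pLKO cells, against 13.1, 10.9 and 11.6 CPM (0.47 ± 0.08, adjusted p = 2.1e-06). Zmat3 fell to 32.9, 30.8 and 26.6 CPM in shPBRM1 cells, against 45.4, 46.2 and 47.0 CPM (−0.61 ± 0.06, adjusted p = 1.54e-11). It fell to 23.1, 23.4 and 20.9 CPM in pLKO cells, against 44.0, 41.4 and 39.8 CPM (−0.89 ± 0.06, adjusted p = 4.33e-15). Bax fell in both lines (−0.52 ± 0.05, adjusted p = 1.72e-10 in shPBRM1 and −0.63 ± 0.06, adjusted p = 2.72e-12 in pLKO cells), with 29.7, 26.9 and 29.1 CPM in shPBRM1 cells after 4 d, against 41.7, 40.6 and 41.0 CPM. Mdm2 rose slightly in both (0.12 ± 0.04, adjusted p = 0.0101 and 0.18 ± 0.04, adjusted p = 0.000211).

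**Figure D3:**
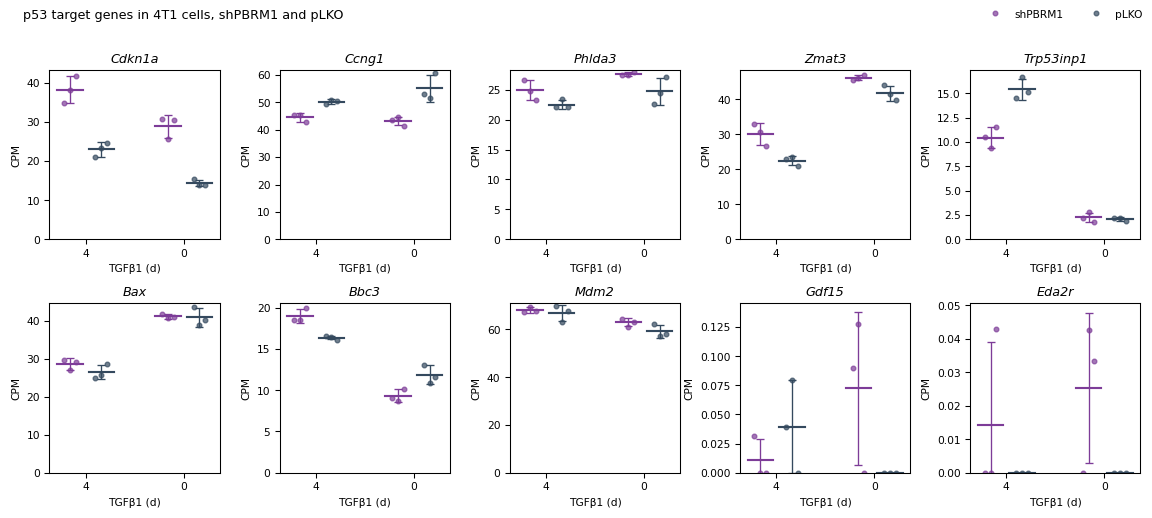
Levels of the 8 members tested in 4T1 cells and of Gdf15 and Eda2r (CPM, each library a point, short bars at the means of 3 libraries, whiskers for the SD) in shPBRM1 and pLKO cells after 4 d of TGFβ1 and without it. Cdkn1a is higher in shPBRM1 cells in both states, Trp53inp1 is several-fold higher after 4 d in both lines, and Gdf15 and Eda2r lie at or near 0.

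Cdkn1a was the member that the knockdown of Pbrm1 moved most in 4T1 cells, and it was higher. It had 30.7, 25.5 and 30.5 CPM in untreated shPBRM1 4T1 cells, against 15.3, 14.0 and 13.8 CPM in untreated pLKO 4T1 cells (1.01 ± 0.08, adjusted p = 4.36e-13). After 4 d it had 34.8, 38.1 and 41.8 CPM in shPBRM1 cells, against 21.0, 23.4 and 24.6 CPM in pLKO cells (0.73 ± 0.07, adjusted p = 5.58e-11). The 4 groups did not overlap, and untreated shPBRM1 cells lay above pLKO cells that had 4 d of TGFβ1. Cdkn1a was higher after 4 d of TGFβ1 than without it by 0.40 ± 0.07 in shPBRM1 and 0.68 ± 0.08 in pLKO cells. Of the 8 members tested, 3 were higher and 2 lower in untreated shPBRM1 cells, where 27.5% of all genes tested were called higher and 23.5% lower. After 4 d, 4 were higher and 2 lower, where 27.8% of all genes tested were called higher and 27.3% lower.

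Ccng1 was lower in shPBRM1 4T1 cells, with 43.5, 44.5 and 41.5 CPM, against 53, 51.6 and 60.7 CPM in pLKO cells without TGFβ1 (−0.35 ± 0.05, adjusted p = 2.75e-07), and after 4 d (−0.17 ± 0.05, adjusted p = 0.00322). Bbc3 was lower without TGFβ1 (−0.34 ± 0.08, adjusted p = 0.000996) and higher after 4 d (0.21 ± 0.07, adjusted p = 0.0125). Trp53inp1 did not pass without TGFβ1 (0.09 ± 0.17, adjusted p = 0.706) and was lower after 4 d (−0.56 ± 0.09, adjusted p = 2.18e-06). Zmat3 was higher in both states (0.15 ± 0.06, adjusted p = 0.0265 and 0.43 ± 0.06, adjusted p = 6.03e-07), as was Phlda3 (0.16 ± 0.06, adjusted p = 0.0265 and 0.15 ± 0.06, adjusted p = 0.0396). Mdm2 (0.09 ± 0.04, adjusted p = 0.0712 and 0.03 ± 0.04, adjusted p = 0.597) and Bax (0.01 ± 0.05, adjusted p = 0.919 and 0.12 ± 0.06, adjusted p = 0.09) did not pass in either state. Without TGFβ1 calls were lost for Zmat3 by DESeq2 (0.14, adjusted p = 0.0672). Nor did Zmat3 pass without 4T1 pLKO 0 d replicate 2 or 3 or 4T1 shPBRM1 0 d replicate 1 or 2 or 3 (0.11 to 0.14, adjusted p = 0.0634 to 0.148). Phlda3 lost it with no filter on low counts (0.15, adjusted p = 0.0659) and by DESeq2 (0.15, adjusted p = 0.0661). Nor did Phlda3 pass without 4T1 pLKO 0 d replicate 1 or 2 or 4T1 shPBRM1 0 d replicate 1 or 2 or 3 (0.10 to 0.16, adjusted p = 0.0687 to 0.222). After 4 d they were lost for Bbc3 without 4T1 shPBRM1 4 d replicate 3 (0.17, adjusted p = 0.0672). Phlda3 lost it without 4T1 pLKO 4 d replicate 1 or 3 or 4T1 shPBRM1 4 d replicate 1 or 2 (0.10 to 0.16, adjusted p = 0.0599 to 0.247).

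The interaction passed for 4 members, where 28.3% of all genes tested were called in either direction. Cdkn1a (−0.28 ± 0.10, adjusted p = 0.0433) and Trp53inp1 (−0.65 ± 0.20, adjusted p = 0.0115) rose less in shPBRM1 cells. Bbc3 rose more (0.55 ± 0.11, adjusted p = 0.000223), and Zmat3 fell less (0.28 ± 0.08, adjusted p = 0.0107). These calls were lost for Cdkn1a with DESeq2's size factors in edgeR (−0.26, adjusted p = 0.0653) and by DESeq2 (−0.25, adjusted p = 0.0932). Nor did Cdkn1a pass without 4T1 pLKO 0 d replicate 2 or 3 or 4T1 pLKO 4 d replicate 2 or 3 or 4T1 shPBRM1 0 d replicate 1 or 3 or 4T1 shPBRM1 4 d replicate 1 or 2 (−0.28 to −0.21, adjusted p = 0.0593 to 0.161). Trp53inp1 lost it without 4T1 shPBRM1 0 d replicate 2 (−0.47, adjusted p = 0.104). Zmat3 lost it without 4T1 shPBRM1 4 d replicate 1 (0.21, adjusted p = 0.0625). Of the TGFβ1 changes in shPBRM1 4T1 cells, calls were lost for Mdm2 without 4T1 shPBRM1 0 d replicate 2 (0.08, adjusted p = 0.1). Phlda3 lost it with library totals alone as the scale (−0.12, adjusted p = 0.0694) and by DESeq2 (−0.14, adjusted p = 0.0792). Nor did Phlda3 pass without 4T1 shPBRM1 0 d replicate 3 or 4T1 shPBRM1 4 d replicate 2 or 3 (−0.14 to −0.11, adjusted p = 0.0766 to 0.14). Of those in pLKO 4T1 cells, the call was lost for Ccng1 without 4T1 pLKO 0 d replicate 3 or 4T1 pLKO 4 d replicate 1 (−0.12 to −0.06, adjusted p = 0.0613 to 0.254).

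Side by side, Cdkn1a was lower under TGFβ1 in sgPBRM1 and sgCT NMuMG cells at 72 h (−0.56 and −0.83 on the log2 scale). It was higher in shPBRM1 and pLKO 4T1 cells at 4 d (0.40 and 0.68). Trp53inp1 had −0.80 and −0.48 in NMuMG and 2.22 and 2.87 in 4T1, and Mdm2 −0.62 and −0.88 in NMuMG and 0.12 and 0.18 in 4T1. Bax fell in both lines of each (−0.53 and −0.31, and −0.52 and −0.63). The pLKO NMuMG cells, whose 72 h values were −0.15 for Cdkn1a, −0.23 for Mdm2, −0.22 for Ccng1 and −0.02 for Trp53inp1, stood nearer to 0 than those of sgCT cells of the same parent line (−0.83, −0.88, −0.85 and −0.48). Times, vectors and tables differ between the experiments, so these differences were not tested.

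**Figure D4:**
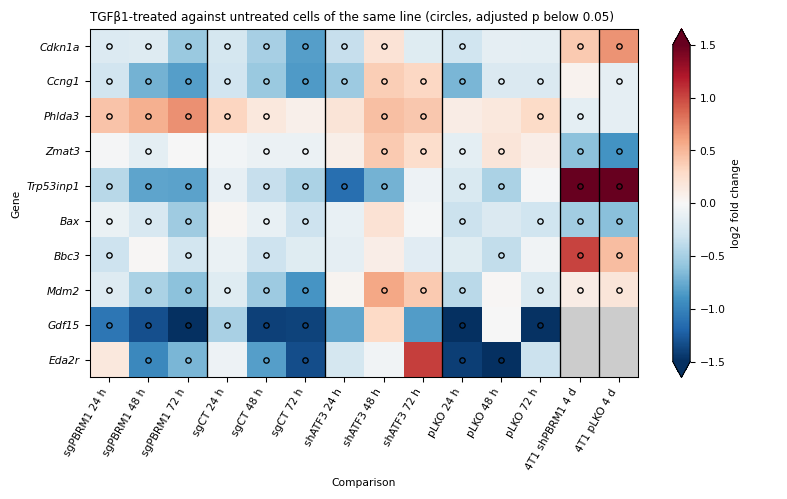
Log2 fold changes of each member under TGFβ1 (rows) in each line and time against its own untreated cells (columns), on a colour scale that ends at ±1.5, with a mark on calls at an adjusted p under 0.05. The sgPBRM1 and sgCT columns are mostly negative except for Phlda3, and in the 4T1 columns Trp53inp1 reaches 2.22 in shPBRM1 and 2.87 in pLKO cells.

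The loss of Pbrm1 set against its own control gave, without TGFβ1, −0.34 for Cdkn1a in NMuMG and 1.01 in 4T1, −0.26 and 0.15 for Zmat3, −0.28 and 0.16 for Phlda3, and 0.01 and −0.35 for Ccng1. The 4T1 calls of Zmat3 and Phlda3 were lost by DESeq2, as given above. None of the 8 members tested in both lines was called in the same direction in both without TGFβ1. Over all genes tested, 21.9% were higher and 23.2% lower in NMuMG and 27.5% and 23.5% in 4T1. How many of all genes were called in the same direction in both was not counted. The 2 cell lines carry different kinds of loss, a guide in one and a hairpin in the other, and they differ in Pbrm1 RNA as given above. In NMuMG, Cdkn1a, Mdm2, Zmat3, Eda2r and Phlda3 were lower at 0 h both in sgPBRM1 cells and in the libraries labelled shATF3, each against its own control: −0.34 and −0.84 for Cdkn1a, −0.31 and −0.44 for Mdm2, −0.26 and −0.68 for Zmat3, −1.43 and −2.23 for Eda2r, and −0.28 and −0.55 for Phlda3. Of all genes tested, 23.2% and 18.4% were lower in these comparisons, and the share lower in both was not counted. Atf3 RNA was lower in sgPBRM1 than in sgCT cells at 0 h (−1.11 ± 0.10, adjusted p = 6.32e-14) and was no lower in the libraries labelled shATF3 than in pLKO libraries.

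**Figure D5:**
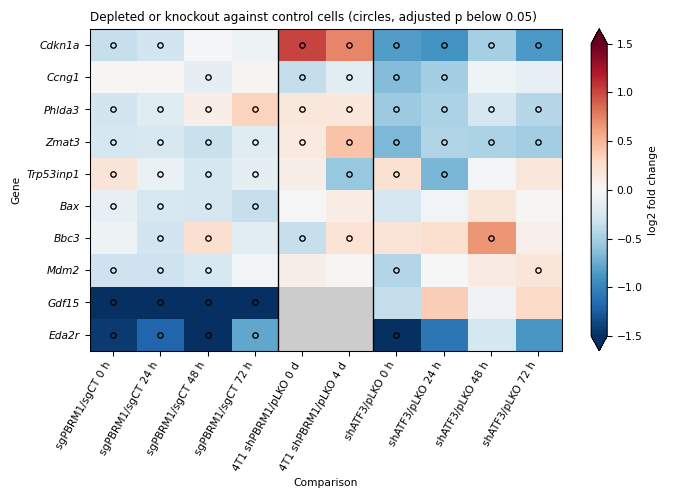
Log2 fold changes of each member (rows) in sgPBRM1 against sgCT NMuMG cells, libraries labelled shATF3 against pLKO NMuMG cells, and shPBRM1 against pLKO 4T1 cells at each time (columns), on a colour scale that ends at ±1.5, with a mark on calls at an adjusted p under 0.05. Gdf15 and Eda2r are negative in all 4 sgPBRM1 columns, and Cdkn1a is negative in the shATF3 columns and positive in the 4T1 columns (1.01 and 0.73).

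A wider list of 30 other p53 targets held calls in both directions under TGFβ1, in several lines at about the share of all genes. At 72 h it had 11 higher and 13 lower in sgPBRM1 cells, 9 higher and 15 lower in sgCT cells, 11 higher and 4 lower in the libraries labelled shATF3 and 12 higher and 11 lower in pLKO cells. Of the 29 tested in 4T1 it had 10 higher and 11 lower in shPBRM1 and 13 higher and 12 lower in pLKO cells. Over all genes tested in these 6 comparisons, 36.2% were higher and 34.9% lower in sgPBRM1 cells, 34.9% and 34.4% in sgCT cells, 27.8% and 26.6% in the libraries labelled shATF3, 28.9% and 29.1% in pLKO NMuMG cells, 35.2% and 34.7% in shPBRM1 4T1 cells and 39.1% and 35.4% in pLKO 4T1 cells. Its median log2 fold change was −0.03 in sgPBRM1 and −0.26 in sgCT cells at 72 h. The leading gene in every one of these was Ak1, which encodes an adenylate kinase, with 521 CPM at 72 h and 24.5 CPM at 0 h in sgPBRM1 cells (4.41 ± 0.04, adjusted p = 1.07e-65). Gadd45a, a growth arrest gene induced by DNA damage, had 2.74 in sgPBRM1 and 2.07 in sgCT cells, and Pmaip1, which encodes the BH3-only protein NOXA, had 2.17 and 1.83. At 72 h in sgPBRM1 and sgCT cells Cdkn1a, Mdm2 and Ccng1 were lower while Gadd45a and Pmaip1 were higher. Gadd45a and Pmaip1 are named for the size of their change, and the list had more genes lower than higher in both lines. In the libraries labelled shATF3 Gadd45a had 1.92 and Pmaip1 2.03, and in pLKO cells 2.11 and 1.99. In 4T1, Fas, the gene of a death receptor, rose by 2.52 in shPBRM1 and 3.07 in pLKO cells, and Aen, an exonuclease gene, changed by −1.97 and −1.99.

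Between lines the same list leaned lower in sgPBRM1 than in sgCT cells without TGFβ1 (3 higher and 16 lower, median −0.15, beside 0.00 over all genes, of which 21.9% were higher and 23.2% lower). The largest change was that of Perp, which encodes a desmosomal protein, at 52.1 CPM in sgPBRM1 and 104 CPM in sgCT cells (−1.0 ± 0.05, adjusted p = 1.55e-25). Against pLKO libraries the untreated libraries labelled shATF3 had 3 higher and 10 lower, beside 18.6% and 18.4% of all genes, led by Ei24 (−2.21 ± 0.09, adjusted p = 5.3e-17), which encodes a protein of the endoplasmic reticulum. In 4T1 the knockdown of Pbrm1 gave 7 higher and 11 lower without TGFβ1 (beside 27.5% and 23.5% of all genes) and 9 higher and 11 lower after 4 d (beside 27.8% and 27.3%), with Fas at 5.65 CPM in shPBRM1 and 19.7 CPM in pLKO cells after 4 d (−1.80 ± 0.10, adjusted p = 6.16e-17).

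Genes that p21 is known to silence through the DREAM complex were lower under TGFβ1 in all 4 NMuMG lines. Of 16 such cell cycle genes, all 16 were lower at 72 h in sgPBRM1 cells (median −3.08), sgCT cells (−1.66), the libraries labelled shATF3 (−1.18) and pLKO cells (−1.09). Of all genes tested, 34.9%, 34.4%, 26.6% and 29.1% were lower in these 4 lines. Cdkn1a itself was lower at that time in sgPBRM1 and sgCT cells and did not pass in the other two. Kif23, a mitotic kinesin gene, had 16.7 CPM at 72 h and 187 CPM at 0 h in sgPBRM1 cells (−3.49 ± 0.05, adjusted p = 3.08e-53). In sgPBRM1 against sgCT cells, 12 of the 16 were lower and 1 higher at 0 h, and 1 was lower and 13 higher at 24 h. At 48 h 15 were lower and none higher, as at 72 h (medians −0.93 and −1.49), and Cdkn1a did not pass at either time. Over all genes tested, 23.2%, 23.7%, 25.6% and 25.6% were lower and 21.9%, 23.1%, 24.4% and 24.3% higher at the 4 times. In 4T1 the list had 2 higher and 12 lower in shPBRM1 and 2 higher and 13 lower in pLKO cells after 4 d, beside a higher Cdkn1a, led by Mybl2 (−0.75 and −1.23). Over all genes tested, 35.2% were higher and 34.7% lower in shPBRM1 and 39.1% and 35.4% in pLKO 4T1 cells.

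Other genes of the BCL2 family, to which Bax and Bbc3 belong, were mostly higher under TGFβ1 in the first experiment, with 9 higher and 1 lower of 11 tested in sgPBRM1 cells and 8 higher and 2 lower in sgCT cells at 72 h. Over all genes tested, 36.2% were higher and 34.9% lower in sgPBRM1 and 34.9% and 34.4% in sgCT cells. Bmf, a BH3-only gene, had 525 CPM at 72 h and 183 CPM at 0 h in sgPBRM1 cells (1.52 ± 0.03, adjusted p = 8.36e-47). Bcl2l1, which encodes the survival protein BCL-XL, fell (−0.97 ± 0.04, adjusted p = 4.91e-28 in sgPBRM1 and −1.08 ± 0.04, adjusted p = 4.23e-31 in sgCT cells). Bmf also rose in 4T1, by 2.60 in shPBRM1 and 3.43 in pLKO cells. Trp53 itself was 188 ± 3.15 CPM in sgPBRM1 and 205 ± 1.28 CPM in sgCT cells at 0 h (−0.13 ± 0.03, adjusted p = 0.000988). It was 151 ± 1.17 CPM in sgPBRM1 and 189 ± 9.39 CPM in sgCT cells at 72 h (−0.33 ± 0.03, adjusted p = 3.08e-12). In the libraries labelled shATF3 it was higher than in pLKO libraries at 0 h (0.24 ± 0.05, adjusted p = 0.000284), where Cdkn1a, Mdm2 and Zmat3 were lower. In 4T1 it was higher in shPBRM1 than in pLKO cells (0.35 ± 0.04, adjusted p = 1.17e-09) and fell with TGFβ1 in both (−0.48 and −0.53), where Cdkn1a rose. Mdm4, whose protein binds p53 beside MDM2, was higher in untreated shPBRM1 than pLKO 4T1 cells (0.48 ± 0.04, adjusted p = 3.23e-13). Of the 13 p53 family members and regulators tested in NMuMG, the counts were 4 higher and 4 lower at 72 h in sgPBRM1 cells and 4 higher and 5 lower in sgCT cells. Those counts were close to the shares of all genes given above for the same comparisons.

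Among themselves the members moved in step only in part. Over the 8 group means of the first experiment, log2 levels of Cdkn1a and Mdm2 had a Pearson r of 0.956, those of Ccng1 and Trp53inp1 one of 0.947, and those of Trp53inp1 and Phlda3 one of −0.739. Over the 8 groups of the second experiment the closest pair was Zmat3 and Phlda3, with r = 0.937, followed by Cdkn1a and Zmat3 with 0.902, while Bbc3 and Zmat3 had −0.681. Cdkn1a and Mdm2 over all 20 groups, each table centred on its own mean, had 0.545. These are descriptions over groups that share controls and time points. Among 8181 genes with a mean of at least 10 CPM in every table, the levels most like those of each member over the 20 groups, by Pearson r, were Ciao1 (0.769) and Fam76b (0.769) for Cdkn1a. They were Raph1 (0.817) and Ddias (0.806) for Mdm2 and Gas2l3 (0.882) and Hmmr (0.847) for Ccng1. They were Pnrc1 (0.917) and Fah (0.915) for Trp53inp1, Dgke (0.936) and Dynll2 (0.930) for Zmat3, Rab34 (0.862) and Ppp6c (0.854) for Phlda3, Rmnd5a (0.776) and Mast3 (0.757) for Bbc3 and Itpa (0.944) and Enoph1 (0.936) for Bax. No member was among another's 2 closest genes.

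By position, the members lie apart in the genome, at coordinates of GRCm38: Cdkn1a at chromosome 17, 29090976 to 29100727, Ccng1 at chromosome 11, 40748552 to 40755311, Mdm2 at chromosome 10, 117688875 to 117710758, Trp53inp1 at chromosome 4, 11156431 to 11174379 and Zmat3 at chromosome 3, 32334792 to 32366014. Phlda3 is at chromosome 1, 135766119 to 135769136, Gdf15 at chromosome 8, 70629393 to 70632456 and Eda2r at chromosome X, 97333840 to 97377216, and the 2 BCL2 family genes share a chromosome, with Bbc3 at chromosome 7, 16308393 to 16318205 and Bax at chromosome 7, 45461697 to 45466898. All are protein coding. In the GENCODE annotation, 273 exonic bases of Cdkn1a (7.68% of its exonic length) overlap AC167363.2 on the opposite strand and 192 of Bax (12.2%) overlap Gm45808 on the same strand. Whether the counting used strand is not stated, so reads in those stretches could belong to either gene.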

How the data were processed

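The authors deposited 3 tables of raw read counts per gene, per the file headers, 1 for each experiment. Per the submitters' processing notes, the build was mm10 and the tools included edgeR, DESeq2, HISAT2, STAR 2.7.10a and Trim Galore 0.6.7, with no steps given for them. The counts were analysed as deposited. Genes were filtered with filterByExpr (minimum count 10, minimum total 15), which left 14345, 14983 and 13854 genes, scaled by TMM factors and tested with edgeR 4.0.16 in R 4.3.3 by the quasi-likelihood F test, two-sided, with all groups of a table in 1 fit and Benjamini-Hochberg adjustment over all genes tested. The SE of a log2 fold change is its size divided by the square root of F. Scripts were tested on simulated data. Alternatives were other scale factors, library totals alone, other filters, DESeq2 1.42.0, a fit of the groups compared alone, a replicate block and leaving out each library.

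Same-numbered replicates were not taken as pairs, since their deviations from the group means correlated between −0.14 and 0.0905 over 28 comparisons. Replicate libraries differed by more than sampling noise, with a chi-square per gene of at least 1.47. Named beside the members were at most 4 genes per list and comparison with the largest absolute change past the threshold, and Trp53, Mdm4, Pbrm1 and Atf3. The 10 members and the lists of other genes were chosen with earlier results of these data known. Promoter windows come from RefSeq for GRCm38.p6, with 8 of the 10 members matched by symbol, and exon lengths and coordinates from the deposited tables and GENCODE on GRCm38. Intervals and floors cover counting error only.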

Additional observations from a re-analysis of the deposited data

Results flagged for a closer look

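The change under TGFβ1 differed between a line and its control by the interaction term for these members. Between sgPBRM1 and sgCT cells it did so for Trp53inp1 at −0.29 ± 0.06 (adjusted p = 4.51e-05) at 24 h, and at 72 h for Cdkn1a at 0.26 ± 0.05 (adjusted p = 4.57e-05), Mdm2 at 0.27 ± 0.05 (adjusted p = 9.45e-06), Trp53inp1 at −0.33 ± 0.06 (adjusted p = 7.31e-06), Phlda3 at 0.61 ± 0.06 (adjusted p = 6.71e-13) and Bax at −0.22 ± 0.05 (adjusted p = 0.000689). Between the libraries labelled shATF3 and pLKO cells it did so for Mdm2 at 0.44 ± 0.09 (adjusted p = 0.000651) and Trp53inp1 at −0.91 ± 0.12 (adjusted p = 2.46e-06) at 24 h, and for Mdm2 at 0.62 ± 0.09 (adjusted p = 1.08e-05) and Ccng1 at 0.53 ± 0.08 (adjusted p = 2.76e-05) at 72 h. Between shPBRM1 and pLKO 4T1 cells it did so for Cdkn1a at −0.28 ± 0.10 (adjusted p = 0.0433), Bbc3 at 0.55 ± 0.11 (adjusted p = 0.000223), Trp53inp1 at −0.65 ± 0.20 (adjusted p = 0.0115) and Zmat3 at 0.28 ± 0.08 (adjusted p = 0.0107). The 4T1 call of Cdkn1a was lost by DESeq2 and in most fits without 1 library, as given above. Those of Trp53inp1 and Zmat3 were each lost in 1 such fit. Of all genes tested, 18.4% and 27.4% were called at 24 and 72 h for sgPBRM1. The shares were 18.7% and 12.9% for the libraries labelled shATF3, and 28.3% in 4T1. The Trp53inp1 term was negative in all 3 experiments at 1 or more times.

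Some members had opposite signs in NMuMG and in 4T1 cells under like contrasts. These differences were not tested, since the tables were normalised apart, and the contrasts differ in the kind of Pbrm1 loss and in the time under TGFβ1. The loss of Pbrm1 without TGFβ1 gave, in NMuMG and in 4T1, −0.34 and 1.01 for Cdkn1a, −0.26 and 0.15 for Zmat3, and −0.28 and 0.16 for Phlda3. The 4T1 calls of Zmat3 and Phlda3 were lost by DESeq2 and in most fits without 1 library, as given above. TGFβ1 in control cells gave, at 72 h in sgCT NMuMG cells and at 4 d in pLKO 4T1 cells, −0.83 and 0.68 for Cdkn1a, −0.88 and 0.18 for Mdm2, −0.19 and 0.47 for Bbc3, and −0.48 and 2.87 for Trp53inp1. Bbc3 in sgCT cells did not pass the threshold (adjusted p = 0.0584 by edgeR's quasi-likelihood test). In the other NMuMG control, pLKO cells at 72 h, Cdkn1a had −0.15 (adjusted p = 0.0831), Mdm2 −0.23 (adjusted p = 0.00265), Bbc3 −0.05 (adjusted p = 0.761) and Trp53inp1 −0.02 (adjusted p = 0.89), of which Mdm2 alone passed.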

How the results depend on the processing

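Of 320 member results tested, 194 were called, 159 of these in every setting tried. Another setting with all libraries kept ended 16 of the calls, leaving out 1 library ended 32, and no called member changed direction without 1 library. Another setting let 28 results pass that had not. With library totals alone as the scale, the members called were 2 in place of 1 for the interaction of sgPBRM1 and TGFβ1 at 24 h, and 5 in place of 3 for the libraries labelled shATF3 at 24 h against 0 h. They were 8 in place of 5 for pLKO cells at 48 h against 0 h in a fit of the groups compared alone, and 3 in place of 5 by DESeq2 for shPBRM1 against pLKO 4T1 cells without TGFβ1. Without 1 library they ranged from 1 to 2 for that sgPBRM1 interaction, from 5 to 6 in place of 8 for pLKO cells at 24 h against 0 h, from 3 to 5 for untreated shPBRM1 against pLKO 4T1 cells, and from 2 to 5 in place of 4 for the 4T1 interaction.

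With library totals alone, values that were negative in place of positive included these: Trp53 at 48 h against 0 h in sgPBRM1 cells (−0.11) and sgCT cells (−0.0709), at 24 h in the libraries labelled shATF3 (−0.15) and at 72 h in pLKO cells (−0.15), Mdm4 in sgPBRM1 cells at 72 h against 0 h (−0.0846) and 24 h (−0.00817), and Zmat3 in sgPBRM1 cells at 72 h against 24 h (−0.0833). Among member results, 1 changed sign with a call on at least 1 of the scales, and 17 changed sign with a call on neither. On that scale the share of higher genes among those called lay between 37.7% and 55.2% in the NMuMG genotype comparisons, beside 45.9% to 51.0%, and between 61.6% and 65.4% in those of 4T1, beside 50.5% to 54.0%; the cause was not tested. Gdf15 in the libraries labelled shATF3 at 72 h against 0 h had −0.83, and without replicate 3 at 72 h −1.44 (adjusted p = 0.00765 by edgeR).

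Replicate numbers did not pair the samples. With the replicate number as a block, the genes called were between 0.952 and 1.04 times those without it in every comparison, 10231 for sgPBRM1 cells at 72 h against 0 h, for example. Gdf15, Eda2r and Bbc3 rest on the fewest counts in NMuMG, and Gdf15, Eda2r and Trp53inp1 in 4T1, and depth limits their precision.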

Other observations

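Counted over the 28 comparisons between times or lines, which share libraries and are not independent, Bax was called lower in 15 and higher in none, Ccng1 lower in 18 and higher in 4, Trp53inp1 lower in 17 and higher in 5, and Cdkn1a lower in 16 and higher in 5. Phlda3 was the member called higher more often than lower, in 13 against 8. Zmat3 and Mdm2 were each called lower in 14 and higher in 7, and Bbc3 lower in 6 and higher in 5. Over the 24 NMuMG comparisons, Gdf15 and Eda2r were each called lower in 13 and higher in none. Of all genes tested, 11.8% to 39.1% were called higher in each of the 28 comparisons, and 12% to 35.4% lower. How often an average gene was called over these comparisons was not counted.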
